A study of Homo sapiens with 12 samples.

Results

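Gene expression was compared between L428 cells exposed for 24 h to 71.25 nM ixazomib (3 samples) and L428 cells exposed for 24 h to 25 nM ixazomib (3 samples), 6 of the 12 samples of the series. L428 is an established Hodgkin lymphoma cell line, so every group is a single line grown in culture and carries no other genetic change by its labels. Samples were taken by their titles, and all genes on the array were used. The 3 control samples of the same line, for which the labels name no vehicle, served to place each dose step. The 3 samples of an ixazomib-resistant L428 line served in the model only to estimate the spread. They were also normalized with the other arrays and counted in choosing which probes were tested and which was a gene's brightest. The higher dose is 2.85 times the lower one, so the comparison asks which genes kept moving with dose and which had already settled at 25 nM.

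Ixazomib is an oral boronic acid drug that inhibits the chymotrypsin-like site of the 20S proteasome, the PSMB5 subunit. When the proteasome is blocked, damaged and short-lived proteins accumulate. Cells then switch on several transcription programmes in parallel. HSF1 drives cytosolic chaperones, ATF4 drives amino acid supply and the CHOP pathway, IRE1 and ATF6 drive endoplasmic reticulum chaperones, NRF2 (NFE2L2) drives antioxidant enzymes, and NFE2L1 drives new proteasome subunits, the so-called bounce-back. Proteasome activity is also needed to degrade I-kB alpha and to process the NFKB2 precursor, and Hodgkin cells are known for constant NF-kB activity.

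Messenger RNA was read on Illumina HT-12 bead arrays. Of 47227 probes, 20414 were detected on enough arrays to be tested, for 14953 genes by their brightest probe. Mean signals were 342.3 to 353.8 at 71.25 nM and 316.4 to 384.0 at 25 nM, with 17861 to 18179 and 17470 to 17837 probes detected. Levels below are normalized log2 intensities of single arrays, and differences are log2 intensities at 71.25 nM minus 25 nM. Adjusted p-values are from limma with Benjamini-Hochberg adjustment over all 20414 tested probes. One probe's level cannot be set against another's. One sample of the 71.25 nM group carries a description that names 25 nM, although its title and treatment label say 71.25 nM. In the authors' normalized values it correlated at 0.9962 to 0.9965 with the other 71.25 nM samples and at 0.9921 to 0.9932 with the 25 nM samples, and leaving it out of those values gave 1287 called genes, against 1775 with it. The arrays are numbered in the order of the groups, so array order and dose cannot be told apart. The design text speaks of biological triplicates without saying whether these were separate cultures, so the p-values cover no more than the variation among these arrays, part of which may be technical.

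The higher dose moved a small part of the transcriptome further. Of 14953 genes, 876 (5.86%) differed at an adjusted p under 0.05, 445 (2.98%) higher and 431 (2.88%) lower at 71.25 nM, and 50 (0.334%) differed at least 2-fold, 38 higher (0.254%) and 12 lower (0.0803%). For comparison, 1992 genes were higher (13.3%) and 2043 lower (13.7%) at 25 nM than in control cells, and 2901 were higher (19.4%) and 2937 lower (19.6%) at 71.25 nM than in control cells. In all 876 called genes the 71.25 nM and 25 nM arrays did not overlap, and 4359 of all genes tested (29.2%) showed such a gap. On the main axis of variation (58.6% of the variance), control arrays scored -43.6 to -39.4, those at 25 nM scored 9.4 to 10.1 and those at 71.25 nM scored 30.1 to 32.6. The count of calls was 454, 476 and 372 without 25 nM array 4, 5 and 6, and 450, 632 and 435 without 71.25 nM array 7, 8 and 9, and 291 genes were called in all 6 of these leave-outs. When arrays were scaled to 8 housekeeping genes, which moved the median of all genes by 0.06, 448 genes were higher and 206 lower, that is 68.5% higher against 50.8% with quantile normalization.

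Genes were then sorted by both steps, 25 nM against control and 71.25 nM against 25 nM, which share the 25 nM arrays. A gene was graded when both steps were called in 1 direction, and at plateau when the first step was called, the second was not, and the 95% confidence interval of the second lay within 0.5 log2 of no change. Graded genes numbered 237 upward (1.58% of those tested) and 220 downward (1.47%). Plateau genes numbered 1183 upward (7.91%) and 1218 downward (8.15%). Their median first steps of 0.52 and -0.50 were about as large as the margin, so a sizeable further change could go unseen. With a margin of 0.3 log2 they numbered 269 and 276, and with a margin relative to the first step 313 and 250. Another 535 genes that rose at 25 nM (3.58%) and 578 that fell (3.87%) had a second step too imprecise to place. A second step was called, with no call at the first, for 181 genes upward (1.21%) and 174 downward (1.16%). The missing call does not show that their first step was absent. After the opposite change at 25 nM, 27 genes turned back upward (0.181%) and 37 downward (0.247%), and 10563 genes (70.6%) were called at neither step. Among the 244 genes at least 2-fold higher at 25 nM than in control cells, 75 (30.7%) were graded and 95 (38.9%) were at plateau. The median level at 71.25 nM was 8.50 over plateau-up genes, with 25 of 1183 above 13, and 8.70 over graded-up genes, with 5 above 13. The part of the array's scale in these classes was not tested. Over the 5838 genes changed at 71.25 nM against control, a median of 66.7% of the log2 change was already present at 25 nM, a dose that is 35.1% of the higher one.

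**Figure D1:**
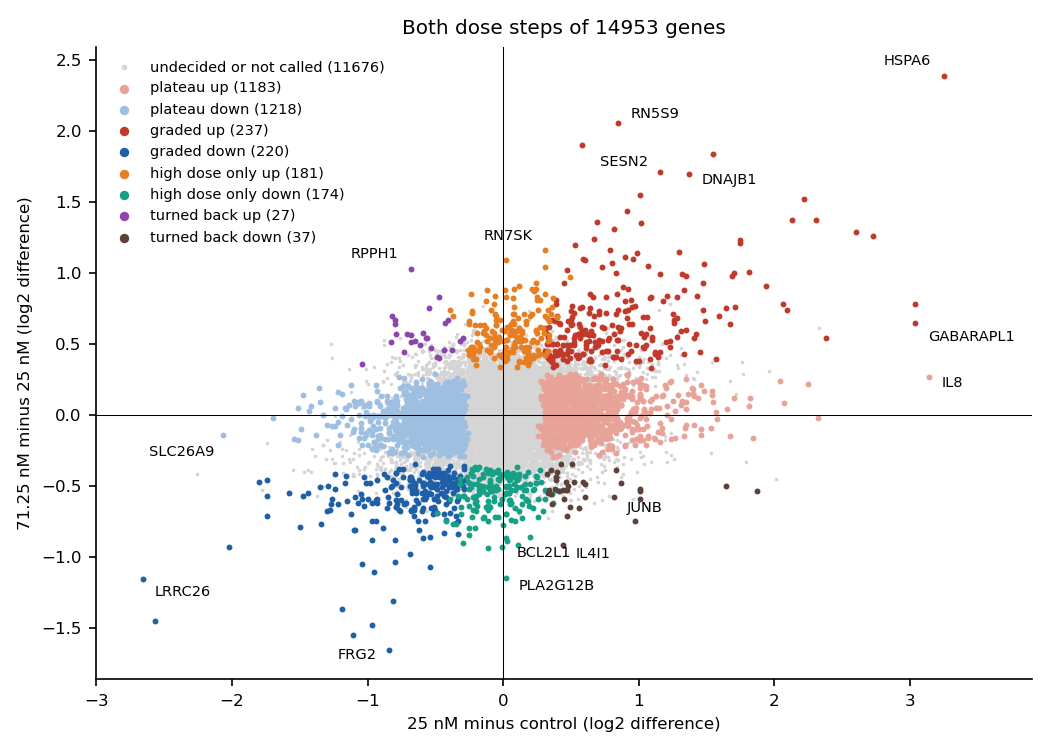
Each point is a gene, plotted by its log2 difference of 25 nM minus control on the horizontal axis and of 71.25 nM minus 25 nM on the vertical axis, coloured by dose class. Graded genes such as HSPA6 (2.39) stand away from the horizontal line of no further change, while plateau genes such as IL8 (0.27) and SQSTM1 (0.04) lie along it. The axes share the 25 nM arrays.

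Cytosolic chaperones and heat shock genes, which refold or hold damaged proteins, rose further with the higher dose. Of 30 tested, 15 were higher at 71.25 nM and 0 lower, with a median difference of 0.42 against -0.001 over all genes. Of the 15, 12 were graded and 3 were called at the higher dose alone, while 7 others were at plateau. Without 25 nM array 4, 12 were higher, and 9 were under median scaling of the arrays. The list describes a known response and was drawn up with earlier results of these data known, as were all lists here. Promoters of 4 members are shown because they carry the heat shock element bound by HSF1 and yet belong to different dose classes. They are RefSeq sequences on GRCh38.p14, read on the gene's strand, with the match nearest the start site, and any overlapping it, in capitals. The motif searched was GAA, TTC and GAA, each parted from the next by any 2 bases, or its reverse complement.
HSPA6, chr1:161524446-161524498, plus strand: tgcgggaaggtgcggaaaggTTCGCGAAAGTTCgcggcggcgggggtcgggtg
SERPINH1, chr11:75562157-75562209, plus strand: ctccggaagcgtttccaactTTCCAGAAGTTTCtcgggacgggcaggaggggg
CHORDC1, chr11:90223067-90223129, minus strand: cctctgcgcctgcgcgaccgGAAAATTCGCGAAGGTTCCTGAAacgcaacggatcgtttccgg
HSPA8, chr11:123062159-123062211, minus strand: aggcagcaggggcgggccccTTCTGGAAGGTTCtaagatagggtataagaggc
Within the 300 bases searched on both strands around each start site (250 of them upstream), 6 of the 26 list members with a promoter (23.1%) held a match, against 133 of 27305 promoters of all genes (0.487%). CHORDC1 held 3 overlapping matches. HSPA6 and SERPINH1 were graded, CHORDC1 was called at the higher dose alone and HSPA8 was at plateau, so a match was found in each of those classes. DNAJB1 and BAG3, both graded, held none in this window.

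HSPA6, a strictly inducible HSP70, made the largest rise of any called gene between the doses. It measured 10.56, 10.93 and 10.60 at 71.25 nM against 8.29, 8.30 and 8.34 at 25 nM, a difference of 2.39 ± 0.12 (SE, n = 3 per group; 5.22-fold; adjusted p = 2.74e-07). The groups lie far apart, and control arrays were at 4.91 to 5.20, detected on 2 of 3, so HSPA6 climbed at each step. DNAJB1, the J-domain partner that loads clients onto HSP70, measured 8.42, 8.39 and 8.13 in control cells, 9.74, 9.76 and 9.55 at 25 nM and 11.50, 11.19 and 11.47 at 71.25 nM. Its second step of 1.70 ± 0.12 (3.26-fold; adjusted p = 6.36e-06) was at least as large as its first of 1.37. HSPA1A, the main stress-induced HSP70, measured 8.33, 8.48 and 8.28 at 71.25 nM against 6.88, 6.77 and 6.89 at 25 nM (1.52 ± 0.14; 2.86-fold; adjusted p = 3.4e-05) and was not detected in control cells. Its near-identical copy HSPA1B measured 13.93, 13.96 and 13.93 at 71.25 nM against 12.61, 12.61 and 12.82 at 25 nM (1.26 ± 0.09; 2.39-fold). Probes of HSPA1A and HSPA1B, and of HSPA6 and its neighbour HSPA7 (1.84), may read RNA of both copies of each pair, so their separate values are uncertain.

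Other members of the list were higher too. SERPINH1, the collagen chaperone HSP47, measured 8.34, 8.41 and 8.25 at 71.25 nM against 7.17, 6.78 and 6.97 at 25 nM (1.36 ± 0.13; 2.57-fold; adjusted p = 6.07e-05), and only 33.7% of its full change was present at 25 nM. BAG3, which steers HSP70 clients to autophagy, measured 11.41, 11.49 and 11.53 at 71.25 nM against 10.68, 10.44 and 10.32 at 25 nM (1.00; adjusted p = 0.000244). Smaller graded rises were those of the HSP110 gene HSPH1 (0.61), the J-domain genes DNAJA4 (0.69) and DNAJB2 (0.57) and the small heat shock protein HSPB1 (0.55). HSPA4L, an HSP110 relative, was not called at 25 nM against control and was higher at 71.25 nM (7.86, 7.85 and 7.90 against 7.15, 7.34 and 7.11; 0.67; adjusted p = 0.00665). CHORDC1 (0.41; adjusted p = 0.0371) and AHSA1 (0.42; adjusted p = 0.0487), both HSP90 co-chaperones, passed the threshold narrowly.

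Several constitutive chaperones were at plateau. HSPA8, the constitutive HSC70, measured 13.30, 13.37 and 13.33 in control cells, 13.82, 13.85 and 13.88 at 25 nM and 14.04, 14.08 and 14.08 at 71.25 nM. Its arrays did not overlap, but the second step of 0.21 (95% interval 0.03 to 0.40) was not called (adjusted p = 0.178), and it lies near the top of the scale, where the highest gene reached 14.38. HSP90AA1 (0.23), HSP90AB1 (0.17), DNAJA1 (0.19), HSPA4 (0.24), STIP1 (0.14) and HSF1 itself (-0.23) were in that class as well. The mitochondrial chaperonins HSPD1 (0.05) and HSPE1 (0.07) were not called at either step.

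Proteasome genes showed no such second step. Of 42 subunits and assembly factors tested, 27 were higher at 25 nM than in control cells, and between the doses limma called 0 higher and 0 lower, with 1 higher and 2 lower at an unadjusted p under 0.05 and 1 lower by the methods' one-way test. Of the 27, 25 were at plateau and the other two were undecided. The plateau count ranged from 24 to 26 when any 1 array was left out and was 18 under median scaling. Without background correction, and likewise with the authors' values, 1 gene of the list was called higher and 1 lower between the doses. PSMB5, the subunit that ixazomib binds, measured 11.28 to 11.43 in control cells, 12.26, 12.22 and 12.14 at 25 nM and 12.23, 12.22 and 12.38 at 71.25 nM. These dose groups overlap, with a difference of 0.07 (95% interval -0.14 to 0.27; adjusted p = 0.741) after a first step of 0.87. PSMD2, a base subunit of the 19S cap, measured 11.48, 11.30 and 11.32 at 71.25 nM against 11.62, 11.47 and 11.44 at 25 nM (-0.14) after a first step of 1.46. PSMC4, a 19S ATPase, measured 10.99, 10.91 and 11.10 at 71.25 nM against 10.96, 11.12 and 11.11 at 25 nM (-0.07) after a first step of 1.41. Over the 25 plateau members the interval bounds ran from -0.40 to 0.40, their first steps from 0.44 to 1.46 and their levels from 6.10 to 13.30. The part of the array's scale in their flat second steps was not tested. A median of 101% of the change at 71.25 nM was present at 25 nM over 32 proteasome genes, against 58.3% over 26 heat shock genes. The immunoproteasome and peptide transporter genes had 0 of 7 called by limma, with 2 lower at an unadjusted p under 0.05.

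NFE2L1, the factor that drives proteasome genes after inhibition, did take a second step. It measured 7.72, 7.59 and 7.66 in control cells, 8.37, 8.48 and 8.41 at 25 nM and 8.95, 8.83 and 8.82 at 71.25 nM, with no overlap (0.45; adjusted p = 0.0218). That call was lost under median scaling and without any 1 of 5 of the 6 dose arrays, all but 71.25 nM array 8, with adjusted p up to 0.206. The antioxidant response element (TGAC, any 3 bases, GC), to which NFE2L1 and NRF2 bind with small MAF partners, is shown in 3 plateau genes, proteasome subunit PSMB3, proteasome ubiquitin receptor ADRM1 and the glutathione synthesis gene GCLM, with the match in capitals.
PSMB3, chr17:38752617-38752665, plus strand: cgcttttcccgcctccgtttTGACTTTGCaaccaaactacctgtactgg
ADRM1, chr20:62302739-62302787, plus strand: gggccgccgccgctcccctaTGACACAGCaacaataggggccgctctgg
GCLM, chr1:93909436-93909484, minus strand: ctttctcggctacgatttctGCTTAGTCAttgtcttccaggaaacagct
A match on either strand was present in 11 of 36 proteasome promoters (30.6%), in 18.4% of plateau-up and 21.3% of graded-up promoters, and in 13.6% of all 27305 promoters, so it is common in both dose classes and overall. PSMB3 measured 12.50 to 12.61 in control cells, 13.43, 13.37 and 13.40 at 25 nM and 13.35, 13.29 and 13.26 at 71.25 nM (-0.10).

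**Figure D2:**
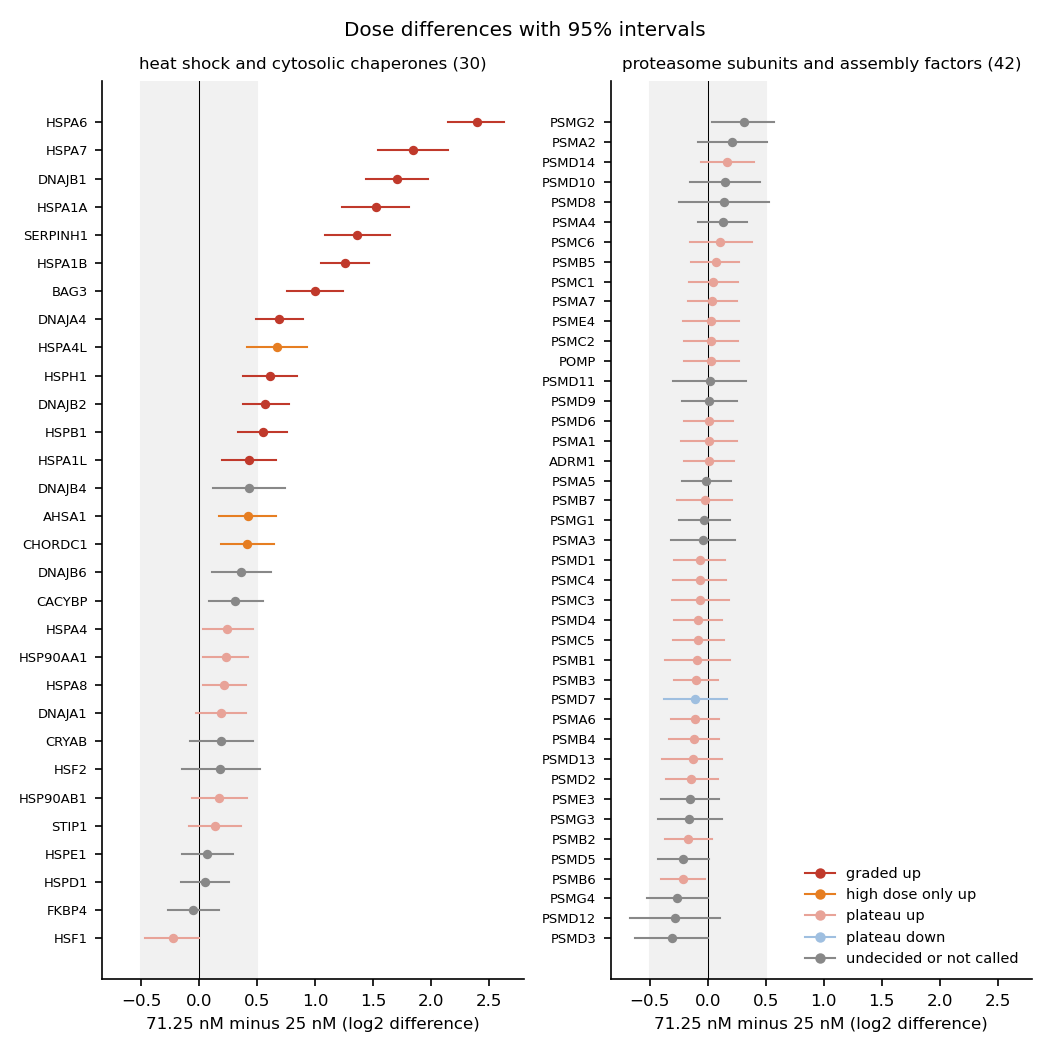
Points are log2 differences of 71.25 nM minus 25 nM for each heat shock and proteasome gene tested, with 95% confidence intervals, and the grey band spans 0.5 log2 on either side of no change. Heat shock genes run upward to HSPA6 at 2.39, while proteasome genes lie between PSMD3 at -0.31 and PSMG2 at 0.31.

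Ubiquitin and autophagy genes, which tag proteins and offer another route of disposal, held both classes. Of 24 tested, 5 were higher and 0 lower, all 5 graded, and 9 were at plateau. Those that kept rising were ZFAND2A (AIRAP), a proteasome-associated stress protein, and autophagosome genes. ZFAND2A measured 8.44, 8.43 and 8.67 in control cells, 10.46, 10.17 and 10.34 at 25 nM and 11.30, 11.35 and 11.34 at 71.25 nM (1.01; adjusted p = 0.000128). GABARAPL1, an ATG8 protein of the autophagosome membrane, measured 6.54, 6.52 and 6.07 in control cells, 9.30, 9.44 and 9.51 at 25 nM and 10.06, 9.96 and 10.17 at 71.25 nM (0.65; adjusted p = 0.012). Both climbed at each step without overlap. WIPI1 (0.85) and MAP1LC3B, which encodes LC3B (0.64), were also higher, and ULK1 (0.39; adjusted p = 0.0472), the initiating kinase, lost its call in 12 of 23 alternatives. SQSTM1 (p62), the receptor that carries ubiquitinated cargo to autophagosomes, was by contrast at plateau. It measured 12.06 to 12.24 in control cells, 13.69, 13.89 and 13.84 at 25 nM and 13.84, 13.85 and 13.86 at 71.25 nM (0.04; 95% interval -0.16 to 0.25). Both doses lie near the top of the scale, where the highest gene reached 14.38, and the part of this in its flat second step was not tested. The segregase VCP (-0.21) and the ubiquitin gene UBB were at plateau as well. Without 25 nM array 4 the list had 3 higher members, and GABARAPL1 lost its call there and without 71.25 nM array 9 (adjusted p up to 0.074).

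NRF2 targets were mixed in the same way. Of 21 tested, 5 were higher and 1 lower, and 8 were at plateau, but without 25 nM array 6 only 1 was higher. HMOX1, the haem-degrading enzyme, measured 6.13, 5.99 and 6.06 in control cells, 7.55, 7.84 and 7.56 at 25 nM and 8.39, 8.41 and 8.26 at 71.25 nM (0.70; adjusted p = 0.0023), and held in each leave-out. FTH1, the ferritin heavy chain (0.62), MAFF, a small MAF (0.72), and TXNRD1, thioredoxin reductase (0.44), lost their calls without 25 nM array 6, and MAFF and TXNRD1 also without some other arrays. GCLM, the glutathione synthesis subunit shown above, measured at most 9.18 in control cells, 10.92, 10.70 and 10.73 at 25 nM and 10.91, 10.93 and 10.85 at 71.25 nM. Its dose groups overlap and its second step was 0.12 (95% interval -0.10 to 0.33; adjusted p = 0.558) after a first of 1.70.

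ATF4 target genes restore amino acid supply and, under lasting stress, arm cell death. Of 24 tested, 10 were higher and 0 lower, with a median difference of 0.33, all 10 graded, and 5 were at plateau. SESN2, a leucine sensor that restrains mTORC1, measured 4.94, 4.71 and 4.52 in control cells, 5.87, 5.81 and 5.95 at 25 nM and 7.68, 7.56 and 7.53 at 71.25 nM (1.71 ± 0.12; 3.28-fold; adjusted p = 4.91e-06). DDIT4 (REDD1), another mTORC1 brake, measured 9.01, 8.92 and 9.14 at 71.25 nM against 7.43, 7.72 and 7.60 at 25 nM (1.44; 2.72-fold; adjusted p = 3.31e-05). DDIT3, which encodes CHOP, measured 10.99, 10.61 and 10.97 at 71.25 nM against 9.62, 9.66 and 9.61 at 25 nM (1.23 ± 0.11; 2.34-fold; adjusted p = 3.52e-05). No array of one dose reached the range of the other in these 3 genes. PPP1R15A (GADD34), which reverses eIF2 alpha phosphorylation (0.88), the pseudokinase TRIB3 (0.83), the transcription factors ATF3 (0.80), CEBPB (0.60) and ATF4 (0.45), and the metabolic enzymes CTH (0.76) and ASNS (0.39) were also higher. At plateau were ATF5 (0.05), the serine synthesis genes PSPH and PHGDH, and the amino acid transporters SLC7A5 and SLC38A2. The aminoacyl-tRNA synthetases, also ATF4 targets, had 2 of 19 higher, GARS (0.47) and CARS (0.39), and 0 without 25 nM array 4. The ATF4 list had 8 to 10 higher members when any 1 array was left out.

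The CARE element (TGATG, any base, AA), to which ATF4 binds together with C/EBP proteins, is shown for ATF3 and for HERPUD1, a component of endoplasmic reticulum-associated degradation, as examples of genes that rose with dose in this response and the next, with the match in capitals.
ATF3, chr1:212565196-212565243, plus strand: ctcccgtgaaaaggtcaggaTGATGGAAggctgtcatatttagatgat
HERPUD1, chr16:56931946-56931993, plus strand: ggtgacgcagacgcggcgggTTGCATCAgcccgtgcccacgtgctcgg
A match on either strand was present in 4 of 20 promoters of the ATF4 list, in 3.67% of all promoters and in 1.77% of those of the genes tested. SESN2 and DDIT3 held none in this window. ATF3 measured 12.22, 12.15 and 12.40 at 71.25 nM against 11.48, 11.46 and 11.45 at 25 nM (adjusted p = 0.000491). HERPUD1 measured 10.63, 10.57 and 10.89 at 71.25 nM against 10.00, 10.27 and 10.20 at 25 nM (0.54; adjusted p = 0.0251), a call lost without 25 nM array 4 or 6 and without 71.25 nM array 7 or 9 (adjusted p up to 0.151).

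The unfolded protein response restores folding in the endoplasmic reticulum. Of its 22 genes tested, 7 were higher and 0 lower, 3 of them graded and 4 called at the higher dose alone, and a median of 46.4% of the change at 71.25 nM was present at 25 nM, over 17 genes. HSPA5 (BiP), the main chaperone of that compartment, measured 6.29, 6.51 and 6.66 in control cells, 6.98, 6.80 and 7.06 at 25 nM and 7.98, 8.03 and 7.91 at 71.25 nM (1.02 ± 0.12; 2.03-fold; adjusted p = 0.000276). DNAJB9 (ERdj4), its IRE1-dependent partner, measured 8.68, 8.60 and 8.53 at 71.25 nM against 7.45, 7.51 and 7.44 at 25 nM (1.14; adjusted p = 0.000146). The 71.25 nM arrays stood clear of the others in both genes. XBP1 (0.40; adjusted p = 0.0306), the kinase EIF2AK3 (PERK; 0.66), the ubiquitin ligase SYVN1 (0.49) and DERL1 (0.42) were higher too, and HSP90B1, CALR, SDF2L1 and EDEM1 were at plateau. By their other probes SYVN1 differed by 0.09 (adjusted p = 0.861) and HERPUD1 by 0.79 (adjusted p = 0.000649). Only 2 genes of the list were higher without 25 nM array 6 and 3 under median scaling. HSPA5 and DNAJB9 stayed called in all 6 leave-outs, whereas EIF2AK3, SYVN1 and HERPUD1 did not.

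**Figure D3:**
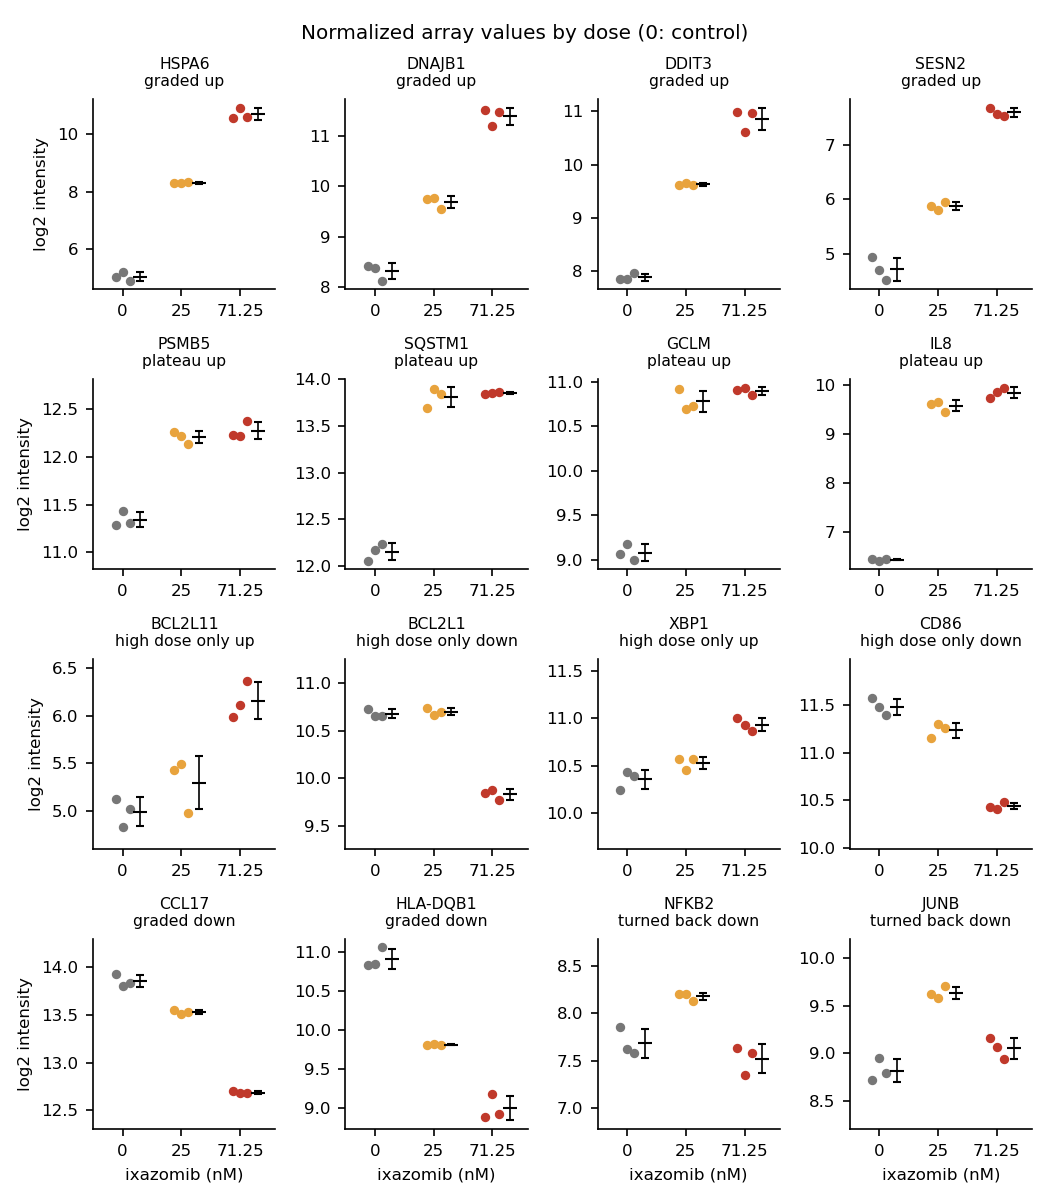
Each panel plots the normalized log2 intensity of 1 gene on every array in control cells, at 25 nM and at 71.25 nM, with bars for the mean ± SD (n = 3). HSPA6, DNAJB1, DDIT3 and SESN2 climb at each dose, and PSMB5, SQSTM1, GCLM and IL8 are at plateau. BCL2L11 and BCL2L1 are called at the second step and not at the first. CCL17 and HLA-DQB1 fall at each dose, and NFKB2 and JUNB turn back.

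Genes of the apoptosis machinery shifted at the higher dose in both directions. Of 26 tested, 4 were higher and 2 lower. BCL2L11, which encodes the BH3-only killer BIM, measured 4.83 to 5.13 in control cells, 5.43, 5.49 and 4.98 at 25 nM and 5.99, 6.11 and 6.37 at 71.25 nM (0.85 ± 0.15; 1.81-fold; adjusted p = 0.00516). BCL2L1, which encodes the survival protein BCL-XL, measured 10.65 to 10.73 in control cells, 10.74, 10.66 and 10.70 at 25 nM and 9.85, 9.88 and 9.77 at 71.25 nM (-0.87 ± 0.09; adjusted p = 0.000136; -0.88 by its other probe). Neither gene was called at 25 nM against control, and both were called between the doses in all 6 leave-outs. BCL2L11 in control cells lay near the lowest signal detected on those arrays (4.86 to 4.94), so a small first step may have been missed. PMAIP1 (NOXA), the BH3-only inhibitor of MCL1, measured 9.26, 9.33 and 9.31 in control cells, 10.05, 9.96 and 9.85 at 25 nM and 10.55, 10.58 and 10.51 at 71.25 nM (0.59; adjusted p = 0.00325), so it was graded by its brightest probe. Its other probe was called at neither step, with 0.14 at the first (adjusted p = 0.474) and 0.38 at the second (adjusted p = 0.0951). The death receptor TNFRSF10B (DR5; 0.57; adjusted p = 0.0106) and the survival gene BCL2L2 (0.51; adjusted p = 0.0239) were also higher. BIRC3 (cIAP2), an NF-kB-driven inhibitor of cell death, measured 9.12, 9.11 and 9.19 at 71.25 nM against 9.66, 9.72 and 9.68 at 25 nM (-0.55; adjusted p = 0.00833). MCL1, the NOXA partner, was at plateau, with a second step of 0.08 after a first of 0.76. Under median scaling, 1 gene of the list was higher and 2 lower.

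**Figure D4:**
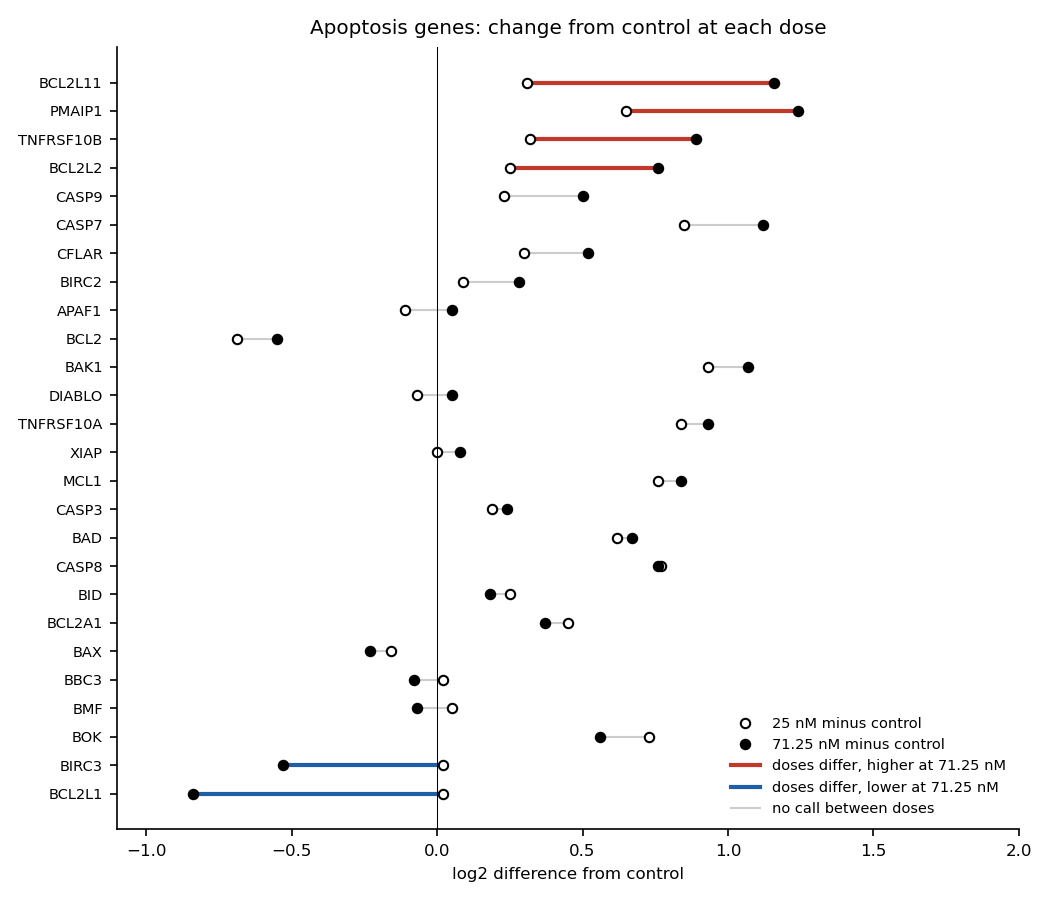
Each row is an apoptosis gene, with the log2 difference from control at 25 nM as an open point and at 71.25 nM as a filled one. BCL2L11 and BCL2L1 separate mainly at 71.25 nM, in opposite directions.

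NF-kB subunits and targets split. Of 31 tested, 4 were higher and 6 lower, with a median of -0.03. Inflammatory cytokines rose, led by the chemokine CCL3 (MIP-1 alpha), which measured 6.28, 6.25 and 6.08 in control cells, 8.49, 8.58 and 8.47 at 25 nM and 9.80, 9.86 and 10.01 at 71.25 nM (1.37 ± 0.10; 2.59-fold; adjusted p = 8.84e-06). The near-identical copies CCL3L1 (1.37) and CCL3L3 (1.29) differed by similar amounts, and these probes may read each other's RNA. IL6 measured 11.60, 11.67 and 11.83 at 71.25 nM against 10.87, 10.77 and 10.71 at 25 nM (0.91; adjusted p = 0.000649). TNF measured 12.38, 12.34 and 12.54 at 71.25 nM against 11.73, 11.64 and 11.64 at 25 nM (0.74; adjusted p = 0.000534). NFKBIZ, a nuclear I-kB that co-activates IL6, was 1.16 higher. The chemokine IL8 (CXCL8) was instead at plateau: 6.41 to 6.44 in control cells, 9.61, 9.66 and 9.45 at 25 nM and 9.73, 9.86 and 9.94 at 71.25 nM. Its first step was 3.14 and its second 0.27 (95% interval 0.06 to 0.48; adjusted p = 0.124). The doses did not overlap, so a small further rise remains possible.

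The NF-kB genes that fell were CCL17, CCL22, NFKB2, BIRC3, BCL3 and NFKBIA. CCL17 (TARC), a chemokine that Hodgkin cells secrete to draw in T cells, measured 13.93, 13.81 and 13.84 in control cells, 13.55, 13.51 and 13.53 at 25 nM and 12.70, 12.68 and 12.68 at 71.25 nM, and its second step of -0.84 (adjusted p = 0.000306) was larger than its first of -0.33. NFKB2, the p100 precursor of the alternative pathway, measured 7.64, 7.35 and 7.58 at 71.25 nM against 8.20, 8.20 and 8.13 at 25 nM (-0.65; adjusted p = 0.00428). Its control arrays at 7.58 to 7.86 show that it had first gone up at 25 nM. CCL22 fell further by 0.55 (adjusted p = 0.0254) but lost that call in 10 of 23 alternatives. Its mean at 71.25 nM was 4.81, detected on 2 of 3 arrays. The lowest signal detected on those arrays was 4.85 to 4.87, so CCL22 lay at background there. BCL3 (-0.53) and NFKBIA (-0.40), which encodes I-kB alpha, were lower as well. Without 25 nM array 4 the list had 3 lower members.

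AP-1 and immediate early factors, which respond quickly to stress kinases, rose further in part. Of 28 tested, 9 were higher and 2 lower, with a median of 0.18. FOS measured 7.17, 6.86 and 7.17 at 71.25 nM against 5.90, 5.64 and 5.60 at 25 nM (1.35; adjusted p = 0.00037). DUSP1, the phosphatase that switches off p38 and JNK, measured 12.08, 11.98 and 12.03 at 71.25 nM against 10.89, 10.84 and 10.73 at 25 nM (1.21; adjusted p = 1.13e-05). Both were without overlap, as were IER5 (0.99), FOSB (0.89), EGR1 (0.74), JUN (0.71), DUSP5 (0.68) and KLF6 (0.53). JUNB, a factor that Hodgkin cells express strongly, measured 8.72, 8.95 and 8.79 in control cells, 9.62, 9.58 and 9.71 at 25 nM and 9.16, 9.07 and 8.94 at 71.25 nM (-0.58; adjusted p = 0.0173), and so turned back. BATF3 was lower by both steps (-0.43; adjusted p = 0.0262). Without 25 nM array 4 no fall in the list was called, and JUNB had adjusted p up to 0.0725 in the leave-outs.

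Hodgkin cell markers were lower at the higher dose in 6 of 15 genes and higher in 0. Their median difference was -0.27, and their summed linear intensity was 30690 to 34510 at 71.25 nM against 46290 to 47130 at 25 nM. FSCN1 and CCL17 hold most of that sum, and over the other 13 markers it was 13010 to 13840 at 71.25 nM against 16270 to 16340 at 25 nM. CD40 (-0.01), CD70 (0.08), CD80 (-0.08) and TNFRSF9 (0.10) were not called. In bulk RNA, fewer expressing cells and less RNA per cell cannot be told apart. CD86, a costimulatory ligand, measured 10.43, 10.41 and 10.48 at 71.25 nM against 11.15, 11.30 and 11.26 at 25 nM (-0.80; adjusted p = 0.000306), with -0.94 and -0.04 from its other probes. FSCN1, the actin bundler fascin (-0.53; adjusted p = 0.0217), CCL17, CCL22, NFKB2 and BATF3 made up the rest. TNFRSF8, which encodes CD30, was not called (-0.25; adjusted p = 0.227), and 14 of the 15 markers were detected on all 6 arrays. The count was 3 without 25 nM array 4 and 3 under median scaling. Of 13 B-cell markers, 6, PAX5 among them, were detected on none of the 6 arrays, and 7 of 10 T-cell markers, CD3D, CD3E and CD3G included, on none. The summed level of the T-cell markers was 222.3 to 241.5 at 71.25 nM and 230.7 to 241.4 at 25 nM, that of the myeloid markers 2661 to 2812 and 2584 to 2944, and that of the stromal or epithelial markers 1333 to 1434 and 1343 to 1375, with 0 genes called by limma in each of these lists. The B-cell markers summed to 562.3 to 604.1 at 71.25 nM against 810.4 to 881.1 at 25 nM, a fall that lay mostly in BLK and SPIB. Of the 7 tested, these 2 were lower and 5 were called at neither step. BLK, a SRC-family kinase, measured 7.40, 7.51 and 7.42 at 71.25 nM against 8.37, 8.23 and 8.35 at 25 nM (-0.87; adjusted p = 0.000649). The B-lineage factor SPIB was lower too (-0.85; adjusted p = 0.0258), but lost its call in 6 of 23 alternatives.

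MHC class II genes, which present peptides to CD4+ T cells, had 4 of 16 lower and 0 higher, all graded. HLA-DQB1 measured 10.83, 10.84 and 11.06 in control cells, 9.81, 9.82 and 9.81 at 25 nM and 8.89, 9.18 and 8.93 at 71.25 nM (-0.81; adjusted p = 0.00206), with no overlap at either step. CIITA, the master coactivator of the class, measured 6.78, 6.88 and 6.83 at 71.25 nM against 7.42, 7.32 and 7.31 at 25 nM (-0.52; adjusted p = 0.0133). The peptide loaders HLA-DMB (-0.46) and HLA-DMA (-0.41) were lower too, but HLA-DRA (-0.08) and the invariant chain CD74 (-0.44; adjusted p = 0.122) were not called. Only HLA-DQB1 kept its call in all 6 leave-outs, and 1 gene of the list was called without 71.25 nM array 7, under median scaling and under housekeeping scaling. MHC class I genes had 0 of 11 called by limma, with 2 lower at an unadjusted p under 0.05.

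Most interferon response genes that rose at 25 nM were at plateau in the main processing, but that count depends on the arrays and the scaling. Of 27 tested, 15 were higher at 25 nM than in control cells and limma called 0 between the doses, with 7 higher and 3 lower at an unadjusted p under 0.05, and 11 were at plateau. The transcription factor IRF9 (0.21; adjusted p = 0.28), the guanylate-binding protein GBP2 (0.29; adjusted p = 0.0811) and IFI35 (0.20; adjusted p = 0.311) were among those at plateau. The plateau count was 6 to 11 when any 1 array was left out and 7 under median scaling. Without background correction, 4 genes were called higher and 3 lower between the doses.

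**Figure D5:**
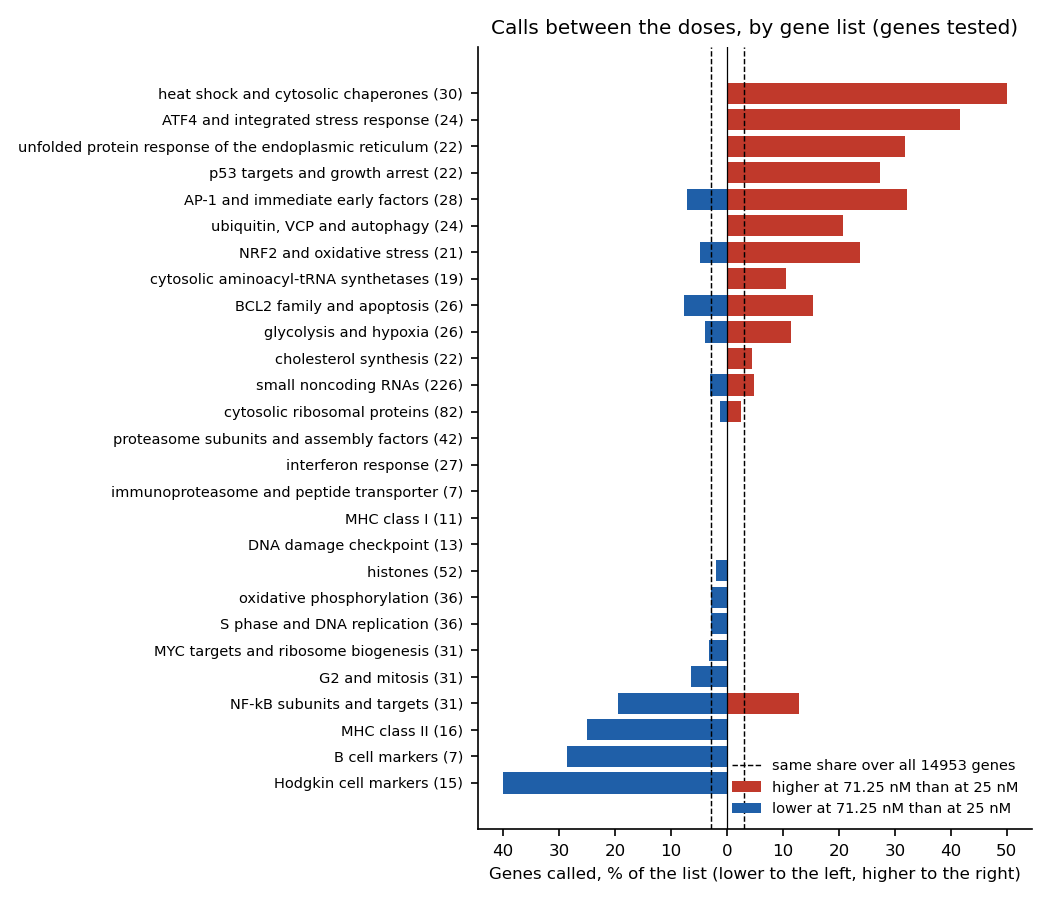
Bars give the percent of each gene list's tested members that were higher or lower at 71.25 nM than at 25 nM by limma, and dashed lines mark the 2.98% and 2.88% found over all genes. Heat shock, ATF4, AP-1 and unfolded protein response lists have the longest bars upward, Hodgkin markers the longest downward, and the proteasome and interferon lists have none.

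MYC and CHEK1, which the study's title names, were not called between the doses. MYC measured 10.81, 10.98 and 10.65 in control cells, 11.27, 11.03 and 11.30 at 25 nM and 11.22, 11.32 and 11.23 at 71.25 nM. Its second step was 0.06 (adjusted p = 0.82), after a first of 0.39, which placed it at plateau by its brightest probe. Its other probe had a first step of 0.13 that was not called (adjusted p = 0.414) and a second of 0.09. CHEK1 measured 9.46 to 9.61 in control cells, 9.28, 9.52 and 9.28 at 25 nM and 9.35, 9.29 and 9.39 at 71.25 nM (-0.02; adjusted p = 0.95). Both sets of arrays overlap, and the sign of each small difference turned in some alternatives. Of 31 MYC target and ribosome biogenesis genes, 0 were higher and 1 lower, with 2 higher and 9 lower at an unadjusted p under 0.05. The 1 was SRM, spermidine synthase, at 9.10, 9.07 and 8.87 at 71.25 nM against 9.64, 9.57 and 9.94 at 25 nM (-0.70; adjusted p = 0.00348).

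Few cell cycle genes were called between the doses, in numbers that depend on the processing. Of 36 S phase genes 1 was lower, POLA2 (-0.44), with 3 higher and 11 lower at an unadjusted p under 0.05. Of 31 mitotic genes 2 were lower, PLK1 (-0.63; adjusted p = 0.00396) and CDC20 (-0.52), with 2 higher and 8 lower at an unadjusted p under 0.05. Without background correction, and likewise with the authors' values, 8 S phase and 7 mitotic genes were lower. No S phase fall was called without 25 nM array 4, and 1 mitotic fall was without 25 nM array 5. The DNA damage checkpoint list had 0 of 13 called by limma, with 2 higher at an unadjusted p under 0.05. Of 22 p53 targets and arrest genes, 6 were higher and 0 lower: SESN2, PMAIP1 and TNFRSF10B, given above, with GADD45A (0.74), CCNG2 (0.67) and XPC (0.48). CDKN1A (p21) rose at 25 nM by 1.77, and its second step of 0.29 was not called (adjusted p = 0.0951). The CDK4 and CDK6 inhibitor gene CDKN2C (p18) measured 7.13, 6.83 and 7.31 at 71.25 nM against 5.77, 5.78 and 5.07 at 25 nM (1.55; adjusted p = 0.00037), but its other probe differed by 0.01, so its probes disagree.

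The largest falls between the doses were in genes outside these pathways. FRG2, a gene of the subtelomeric facioscapulohumeral dystrophy region, measured 8.71, 9.12 and 8.53 in control cells, 8.05, 7.82 and 7.98 at 25 nM and 6.11, 6.33 and 6.43 at 71.25 nM (-1.66 ± 0.15; adjusted p = 3.4e-05). Its paralog FRG2B was at -1.55, and such near-identical copies may share probes, as may CYP4Z1 (-1.31) and its pseudogene CYP4Z2P (-1.37). LSP1, a leukocyte actin-binding protein, was at -1.48 by its brightest probe and at -0.88, -1.22 and 0.06 by the others. LRRC26, a potassium channel auxiliary subunit, measured 10.33, 10.26 and 10.59 in control cells, 7.71, 7.64 and 7.87 at 25 nM and 6.51, 6.75 and 6.47 at 71.25 nM (-1.16), so most of its fall came first. PLA2G12B, a secreted phospholipase-like gene, did the opposite, with 10.10, 10.12 and 10.35 in control cells, 10.34, 10.28 and 9.99 at 25 nM and 8.97, 9.11 and 9.08 at 71.25 nM (-1.15; adjusted p = 9.32e-05). The chemokine receptor CXCR3 (-1.07) and the chemokine CCL1 (10.03, 9.94 and 10.18 at 71.25 nM against 10.90, 11.03 and 10.98 at 25 nM; -0.92; adjusted p = 0.000244) were lower as well.

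A few genes reversed. Only IL4I1 and PDLIM1 were called against control at both doses in opposite directions. IL4I1, a secreted amino acid oxidase, measured 9.58, 9.21 and 9.56 in control cells, 9.96, 9.82 and 9.87 at 25 nM and 9.08, 9.01 and 8.80 at 71.25 nM (-0.92; adjusted p = 0.000675). PDLIM1, an actin-associated LIM protein, measured 6.0, 5.56 and 5.74 in control cells, 5.39, 5.40 and 5.12 at 25 nM and 5.97, 6.22 and 6.20 at 71.25 nM (0.83; adjusted p = 0.00342). Others that were higher at 25 nM than in control cells and then fell were the fatty acid oxidation enzyme ACADVL (-0.59), the lysosomal transporter SLC15A3 (-0.75) and the tetraspanin CD82 (-0.55), whose mean at 71.25 nM (7.60) lay below that of control cells (7.82). PMP22 (0.75) and SIRPA (0.67) were lower at 25 nM than in control cells and then rose. CD82 lost its call without 25 nM array 6 or 71.25 nM array 9, and SIRPA without 25 nM array 6 or 71.25 nM array 7.

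Several strong responses to 25 nM had no called second step, though a further change within the 0.5 log2 margin remains possible. Among plateau genes, the largest first steps upward were those of IL8, BIN1 (2.32), OKL38 (OSGIN1; 2.25), ALKBH6 (2.07), FERMT2 (2.04), the lysosomal protease CTSD (1.84) and the membrane-binding ANXA2 (1.82). Downward they were those of SLC26A9 (-2.07), SMARCD3 (-1.54), CUEDC1 (-1.51), ASB13 (-1.51), PODXL (-1.49) and the lysosomal protease CTSH (-1.38). Other probes of the upward genes had no called second step either, which alone does not place those probes at plateau. They differed by 0.39 for IL8 (adjusted p = 0.218), 0.41 and 0.25 for ANXA2 (adjusted p = 0.0567 and 0.319) and -0.14 for BIN1. The values of 0.39 and 0.41 lie close to the 0.5 log2 margin. At the threshold itself, RGS19 (-0.41; adjusted p = 0.0496) was just called, and GBP5 (0.36; adjusted p = 0.0503) and MAGEB2 (0.45; adjusted p = 0.05) were just not.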

How the data were processed

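Total RNA of L428 cells was labelled with a MessageAmp kit and hybridised to Illumina HT-12 arrays, per the labels. The deposited signal table holds linear intensity values per probe, not yet normalized, with a detection p-value per probe and array, per the file headers. The authors' processed table, per the design text corrected to housekeeping genes and quantile normalized, was used as an alternative. Its values are linear with column medians of 103.9 to 104.8, no centring was seen, and the housekeeping genes are not given in the sources used here. Signals were corrected with normexp (offset 16), quantile normalized and log2 transformed in limma 3.58.1 (R 4.3.3). Probes detected at p under 0.05 on at least 3 of 12 arrays were kept (20414 of 47227), a gene was read by its brightest probe, and 1 model with 4 groups gave moderated tests (residual df 8, prior df 5.5, median SE 0.13). All 12 signal columns carry a group and an array number that is not tied to the labels' replicate numbers. On simulated data with 50 changed probes per size, 12, 45 and 49 were recovered at differences of 0.5, 1 and 2 log2, with 7 false calls. Python 3.11.15, pandas 2.3.3, numpy 2.4.6 and matplotlib 3.10.9 handled promoters and figures. The genes, lists and dose classes were chosen with earlier results of these data known. Named were MYC, CHEK1 and PSMB5, the 15 largest called changes each way, the 10 largest of the plateau, high-dose and turned-back classes each way, and up to 5 called genes per list, and further list members were named with their values known. An exact permutation test of 3 against 3 arrays cannot go below 0.1, so none was used. Probe symbols are the array's own, and 3 arrays a group limit the precision.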

Additional observations from a re-analysis of the deposited data

How the results depend on the processing

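Of 147 named results, 97 kept direction and side of the threshold under all 23 alternatives, 48 lost the threshold in at least 1 and 2 changed sign: CHEK1 was 0.00 under housekeeping scaling, 0.06 without 25 nM array 5 and 0.01 without 71.25 nM array 8 (leave-out range -0.06 to 0.06), and MYC was -0.01 under median scaling and -0.03 without 25 nM array 5 (leave-out range -0.03 to 0.11). For named plateau genes other than MYC and PSMB5, the value checked was the step from control to 25 nM. Their flat second step was not checked gene by gene. Of the 876 calls, 281 held under each of the 14 other alternatives. The cause of these shifts was not tested.
Calls numbered 1772 with no background correction, 1582 with an offset of 50, 400 with median scaling, 1354 with a stricter detection filter, 1775 with the authors' values, 1623 with these and the replicate number as a block, 1527 with a trended robust prior, 50 at 2-fold or more, and 372 to 941 with 1 array left out. Below, the first unlabelled values are those with no background correction and with an offset of 50, in that order. Graded-up genes numbered 463 (no correction), 393 (offset 50), 101 (median scaling), 464 (authors), 418 (block), 372 (trend) and 129 to 235 (leave-outs). Graded-down genes numbered 440, 384, 98 (median scaling), 92 (housekeeping scaling), 334 (strict filter), 438 (authors), 412 (block), 381 (trend) and 80 to 214 (leave-outs). Plateau-up genes numbered 599 with median scaling, 269 with a margin of 0.3, 313 with a margin relative to the first step and 805 to 1099 in the leave-outs. Plateau-down genes numbered 1943, 1891, 588 (median scaling), 731 (housekeeping), 1941 (authors), 1902 (block), 1983 (authors, without 71.25 nM replicate 1), 276 (margin 0.3), 250 (relative margin) and 768 to 1097 (leave-outs). Genes called at the higher dose alone numbered, upward, 359, 336, 69 (median scaling), 282 (strict filter), 358 (authors), 327 (block), 320 (trend) and 69 to 207 (leave-outs), and downward 360, 346, 98 (housekeeping), 274 (strict filter), 362 (authors), 327 (block), 330 (trend) and 71 to 229 (leave-outs). Genes that turned back numbered, upward, 51, 44, 4 (median scaling), 46 (strict filter), 52 (authors), 48 (block), 46 (trend) and 4 to 22 (leave-outs), and downward 99, 79, 10 (median scaling), 16 (housekeeping), 65 (strict filter), 101 (authors), 91 (block), 80 (authors, without 71.25 nM replicate 1), 56 (mean of probes), 78 (trend), 58 (one-way test) and 10 to 34 (leave-outs). Same-numbered samples of both doses correlated at 0.03, -0.13 and -0.14 in their deviations, so the numbers were not taken as pairs, and the block is given here alone. Probes near background or near the top of the scale bound what the arrays can show.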

Other observations

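Small noncoding RNAs gave 11 higher (4.87%) and 7 lower (3.1%) of 226 tested, against 2.98% and 2.88% over all genes, and a few abundant transcripts of RNA polymerase III and of the spliceosome were among the larger rises. The higher count was 7 without 71.25 nM array 8, and the lower count was 1 without 25 nM array 6. Such RNAs normally lack the poly(A) tail on which this labelling kit primes. RN5S9, a 5S ribosomal RNA, measured 7.60, 7.45 and 7.54 in control cells, 8.47, 8.35 and 8.34 at 25 nM and 10.59, 10.60 and 10.16 at 71.25 nM (2.06 ± 0.14, SE, n = 3 per group; 4.18-fold; limma adjusted p = 5.42e-06). RN7SK, which holds the elongation factor P-TEFb inactive, measured 10.17, 10.15 and 9.68 at 71.25 nM against 8.83, 8.82 and 8.89 at 25 nM (1.16; adjusted p = 0.000351), with 1.82 by its other probe. RNY4 (1.10), RNU4-2 (0.89) and the U3 genes SNORD3A (1.10), SNORD3D (0.93) and SNORD3C (0.97) were higher as well. By family, 2 of 16 U RNAs were higher and 0 lower, 4 of 65 C/D box RNAs higher and 3 lower, 1 of 61 H/ACA box RNAs higher and 2 lower, and 0 of 61 microRNA genes higher and 2 lower. Array 9 was the lowest of the 71.25 nM arrays for RN5S9, RN7SK, RNU1-3, SNORD3A and SNORD3C, and without it RN5S9 differed by 2.21 and RN7SK by 1.32. The part of RNA quality or tail length in these values was not tested.

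Transport and metabolism held some single graded genes. ABCB1, the multidrug efflux pump, measured 6.37, 6.70 and 6.33 in control cells, 7.56, 7.29 and 7.40 at 25 nM and 8.33, 8.08 and 8.13 at 71.25 nM (0.76; adjusted p = 0.00466; 0.51 by its other probe), the 1 call among 6 efflux genes. Of 26 glycolysis and hypoxia genes 3 were higher, the glucose transporter SLC2A3 (0.67), NDRG1 (0.62) and PDK1 (at least 1.20-fold, detected on no array at 25 nM), and 1 was lower, GPI (-0.59). Without 25 nM array 5, 1 gene of that list was higher. PDK1 lost its call in 15 of 22 alternatives (adjusted p up to 0.258) and NDRG1 in 5 of 23. Of 36 oxidative phosphorylation genes 1 was lower, of 82 ribosomal protein genes 2 were higher and 1 lower, of 52 histone genes 1 was lower, none of them called in every leave-out, and of 6 metallothionein and zinc genes 1 was higher, MT1F (0.73), a call lost without 25 nM array 6. GZMB, the granzyme B gene, was detected on no array at 25 nM or in control cells and was at least 1.47-fold higher at 71.25 nM, a bound set by the lowest signal detected on each array (adjusted p = 0.00037).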
